A study of Mus musculus with 21 samples.

Results

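The 53 genes described here build the DNA replication machinery and supply its precursors. They encode proteins that mark and license origins, the replicative helicase, DNA polymerases, the sliding clamp and its loaders, proteins that finish Okazaki fragments, enzymes of DNA precursor synthesis, chromatin assembly factor 1 and the transcription factor E2F1. Members were taken by gene symbol from a fixed list, and all 53 were among the 12791 genes listed in every library. Their RNA was measured by sequencing in the whole uterus. The mice were wild type C57BL/6J, an inbred strain, at 5 weeks (7 libraries), at 8 weeks (7 libraries) and in aged animals (6 libraries). Every mouse, the aged ones included, had been given 5 or 7.5 units of PMSG (pregnant mare serum gonadotropin, which acts like follicle-stimulating hormone) 48 hours before dissection. The sources used here do not tie a dose to a mouse. The libraries were made from slices of the uterine horns, so endometrium, myometrium and vessels are mixed, and fewer cells of a type and less RNA per cell cannot be told apart. The comparisons ask how the RNA of this machinery differs between aged and young uteri that all received gonadotropin.

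In each cell cycle the origin recognition complex, CDC6 and CDT1 load the MCM2-7 helicase onto DNA, geminin blocks CDT1 once replication has begun, and CDC45 and the GINS complex turn the loaded ring into an active helicase. Polymerase alpha with primase starts each new strand, polymerases delta and epsilon extend it with the PCNA clamp, and ribonucleotide reductase, thymidylate synthase and thymidine kinase 1 provide DNA precursors. Many of these genes are transcribed at entry into S phase under E2F factors, and in the rodent uterus ovarian steroids drive rounds of division in epithelium and stroma.

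The libraries fall into 2 sets by replicate number. Replicates 1 and 2 form the earlier set, in which the aged mice were 60 to 75 weeks old. Its libraries have 12204573 to 14448283 reads over the listed genes. Replicates 3 to 7 form the later set, in which the aged mice were 79 weeks old. Its libraries have 19100690 to 30689439 reads over the listed genes. Groups were read from the column header inside each file. In 15 of the 20 files with values that header names another sample than the one the file is attached to. For 5-week replicate 3 and 8-week replicate 3 the file is attached to a sample of another age group. The file of aged replicate 2 is attached to a later-set sample, and that of aged replicate 5 to an earlier-set sample. The set and stated age of these aged libraries therefore also rest on the header. Aged replicate 3 was not analysed here. The labels do not say whether each library is 1 animal, so p-values measure the spread between these libraries.

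RNA of 38 of the 53 members fell in aged against 8-week uteri and RNA of 34 fell in aged against 5-week uteri, and no member rose in either comparison. Levels are CPM (read counts scaled to the total over the listed genes), and fold changes are on the scale of log2(CPM + 1), which understates the change of low genes. They come from limma fitted to all 20 libraries with a term for the set, and a gene was called at a Benjamini-Hochberg adjusted p under 0.05 over all 12791 genes. The 95% intervals given below were formed from the SE with a normal quantile. They are therefore somewhat narrower than the limma test implies. An interval that only just excludes 0 need not have an unadjusted p under 0.05. Of all genes, 8.44% were called lower in aged than in 8-week uteri and 9.30% lower in aged than in 5-week uteri. The 2 comparisons share the 6 aged libraries. The members' median log2 fold change was -1.11 against 8 weeks and -1.05 against 5 weeks, beside 0.05 and 0.09 for all genes. The log2 fold change was below 0 for 53 members against 8 weeks and for 50 against 5 weeks, beside 5802 and 5492 of all 12791 genes. With 5-week replicate 3 and 8-week replicate 3 left out, 31 members fell in each comparison. With every column given instead to the sample its file is attached to, 9 members fell against 8 weeks (Orc1, Cdc6, Gmnn, Mcm10, Cdc45, Pclaf, Rrm1, Rrm2 and Tk1) and 23 fell against 5 weeks.

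**Figure D1:**
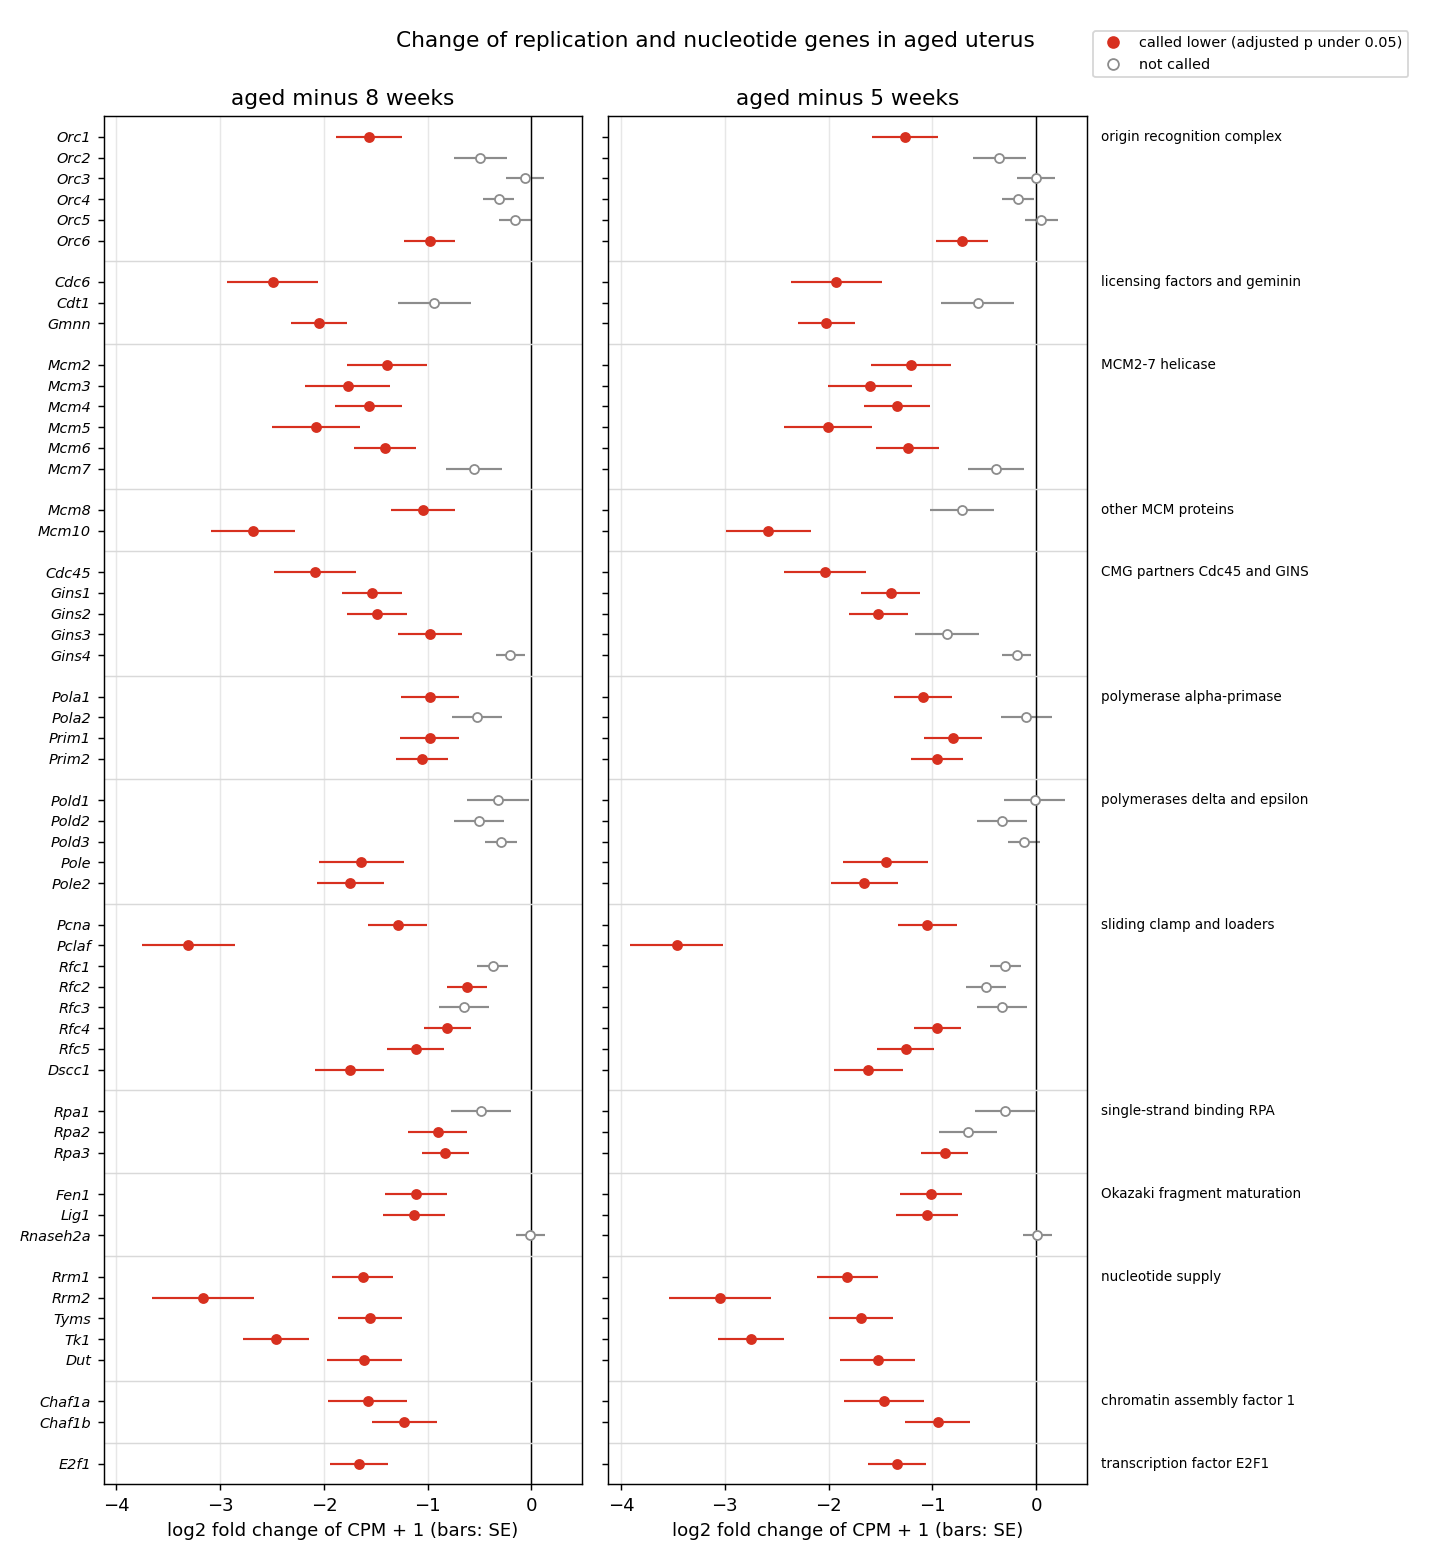
Log2 fold change of CPM + 1 (x axis) for each of the 53 members (rows, grouped by role) in aged minus 8-week uteri (left) and aged minus 5-week uteri (right). Points are limma estimates and bars are SE, with the 38 and 34 members called lower filled in red and the others open. Pclaf and Rrm2 lie farthest to the left, and Orc3 and Rnaseh2a lie close to 0.

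The 34 members called against both younger groups include Mcm2 to Mcm6, Cdc6, Gmnn, Pcna, Pclaf and all 5 nucleotide supply genes. Gins3, Mcm8, Rfc2 and Rpa2 were called against 8-week uteri and had limma adjusted p-values of 0.0524, 0.103, 0.0727 and 0.0972 against 5-week uteri. The 15 members called in neither comparison were Cdt1, Gins4, Mcm7, Orc2, Orc3, Orc4, Orc5, Pola2, Pold1, Pold2, Pold3, Rfc1, Rfc3, Rnaseh2a and Rpa1. Between 8 and 5 weeks limma called 0.00% of all genes and no member, and at an unadjusted p under 0.05 it passed 135 genes (1.06%) and 0 members. The members' log2 differences between 8 and 5 weeks ran from -0.28 (SE 0.31) for Tk1 to 0.57 (SE 0.42) for Cdc6, and their 95% intervals reached from -0.999 to 1.39. The sets went opposite ways here, with a member median of 0.85 in the earlier and -0.15 in the later one. An age-by-set interaction called 0 members for 8 against 5 weeks, and at an unadjusted p under 0.05 it passed 15 of 53 members beside 1.94% of all genes. The small difference over both sets therefore does not show that the members are alike at 8 and 5 weeks.

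Upstream sequence is shown for 6 members that fell and for Rfc3, which was not called, since E2F factors and the CCAAT-binding factor NF-Y are known regulators of cell cycle genes. The RefSeq promoter table (build GRCm38.p6) held 44 of the 53 members. The 250 bases before each start were searched on both strands for 4 E2F words, TTTCCCGC, TTTCGCGC, TTTGCCGC and TTTGGCGC, and for CCAAT. Sequences are printed 5′ to 3′ on the gene's strand without bases annotated as exon. Capitals mark matches, including reverse complements, and neighbouring E2F words may overlap. These genes were picked for display after their matches were known.
Mcm5, chr8:75109259-75109508, plus strand: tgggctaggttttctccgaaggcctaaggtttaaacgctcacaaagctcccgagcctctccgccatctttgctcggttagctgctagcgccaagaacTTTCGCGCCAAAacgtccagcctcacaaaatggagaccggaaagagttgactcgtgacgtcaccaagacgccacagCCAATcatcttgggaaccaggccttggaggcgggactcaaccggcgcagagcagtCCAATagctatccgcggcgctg
Mcm6, chr1:128359706-128359955, minus strand: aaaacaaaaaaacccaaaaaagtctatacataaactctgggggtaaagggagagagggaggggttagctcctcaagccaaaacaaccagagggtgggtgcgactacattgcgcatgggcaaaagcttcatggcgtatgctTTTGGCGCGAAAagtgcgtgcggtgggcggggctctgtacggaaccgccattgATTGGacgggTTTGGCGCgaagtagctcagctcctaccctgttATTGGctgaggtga
Pola1, chrX:93632156-93632405, minus strand: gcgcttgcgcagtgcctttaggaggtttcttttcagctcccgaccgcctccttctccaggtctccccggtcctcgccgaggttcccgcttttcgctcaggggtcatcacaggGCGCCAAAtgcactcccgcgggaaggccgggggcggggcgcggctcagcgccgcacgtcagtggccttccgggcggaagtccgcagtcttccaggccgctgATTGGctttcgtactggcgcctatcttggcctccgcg
Mcm10, chr2:5012792-5013041, minus strand: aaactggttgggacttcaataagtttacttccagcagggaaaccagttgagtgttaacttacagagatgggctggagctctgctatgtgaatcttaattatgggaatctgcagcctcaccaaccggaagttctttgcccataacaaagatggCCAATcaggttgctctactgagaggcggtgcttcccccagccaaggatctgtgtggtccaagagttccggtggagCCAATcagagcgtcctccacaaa
Rrm1, chr7:102441445-102441694, plus strand: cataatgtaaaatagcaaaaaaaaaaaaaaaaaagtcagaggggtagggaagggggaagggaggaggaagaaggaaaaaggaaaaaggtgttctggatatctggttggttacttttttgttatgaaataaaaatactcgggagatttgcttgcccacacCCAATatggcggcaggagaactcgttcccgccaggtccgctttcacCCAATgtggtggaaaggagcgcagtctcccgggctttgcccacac
Rrm2, chr12:24708004-24708240, plus strand: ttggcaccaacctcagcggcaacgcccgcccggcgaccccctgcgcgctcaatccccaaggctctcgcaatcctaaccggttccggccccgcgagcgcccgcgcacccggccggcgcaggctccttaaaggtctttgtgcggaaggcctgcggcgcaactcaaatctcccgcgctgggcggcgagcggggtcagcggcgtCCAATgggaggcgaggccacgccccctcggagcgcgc
Rfc3, chr5:151651243-151651458, minus strand: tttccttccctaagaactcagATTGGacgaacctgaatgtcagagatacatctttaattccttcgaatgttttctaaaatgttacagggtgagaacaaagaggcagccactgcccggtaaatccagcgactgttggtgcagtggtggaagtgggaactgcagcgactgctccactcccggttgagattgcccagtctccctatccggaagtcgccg
The stretch of Mcm5 (a subunit of the helicase) held 2 E2F words, that of Mcm6 (another subunit) held 3 and that of Pola1 (the catalytic subunit of polymerase alpha) held 1. Those of Mcm10, Rrm1 and Rrm2 held CCAAT but none of these 4 words, and the E2F word of Rfc3 lies in bases not printed. An E2F word was found for 9 of 44 members (20.5%), against 2.16% of all 27025 genes in the table and 3.85% of those with values here. Among members called lower against 8 weeks it was found for 6 of 30, and among members not called for 3 of 14. CCAAT was found for 27 of 44 members (61.4%), against 37.5% of all genes in the table and 40.4% of those with values, with 19 of 30 among those called lower and 8 of 14 among those not called. The words were thus present at similar shares in members that fell and members that were not called. With the 50 bases after the start added to the search, an E2F word was found for 17 of 44 members (38.6%), against 2.60% of all genes in the table and 4.64% of those with values, with 11 of 30 among those called lower and 6 of 14 among those not called. No CCAAT match overlapped an E2F word. A match is a string of letters and not a measured binding site.

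Of the 6 origin recognition complex genes, Orc1 and Orc6 fell in both comparisons and the other 4 were called in neither. Orc1, the subunit whose abundance is known to follow the cell cycle, had a lowest, median and highest library of 2.38, 5.05 and 10.985 CPM at 5 weeks, 2.28, 7.84 and 14.8 CPM at 8 weeks and 1.09, 1.57 and 3.14 CPM in the aged group. In 4 of 6 aged libraries it lay below every younger library. Its log2 fold change was -1.57 (SE 0.32, limma adjusted p = 0.00262) against 8 weeks and -1.26 (SE 0.32, adjusted p = 0.00836) against 5 weeks. Orc6, the smallest subunit, fell by 0.98 and 0.71 on the log2 scale (SE 0.25 for both, limma adjusted p = 0.0112 and 0.0439).

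Orc3, a core subunit, overlapped between all 3 ages. It had 28.7, 51.2 and 60.3 CPM at 5 weeks, 24.2, 53.7 and 65.0 CPM at 8 weeks and 30.8, 41.5 and 56.3 CPM in the aged group. Its log2 fold change was -0.07 (95% interval -0.43 to 0.29) against 8 weeks and 0.00 (-0.36 to 0.36) against 5 weeks. Orc4 and Orc5, 2 other core subunits, also overlapped between all groups. Orc4 had 32.7, 42.8 and 54.4 CPM at 5 weeks, 33.6, 47.9 and 55.1 CPM at 8 weeks and 26.4, 38.1 and 46.5 CPM in the aged group. Its log2 fold change was -0.32 (-0.62 to -0.02, limma adjusted p = 0.158) against 8 weeks. That interval excludes 0, but the unadjusted limma p was not under 0.05. Orc5 had 18.6, 31.5 and 38.5 CPM, then 22.1, 31.0 and 40.4 CPM, then 20.1, 28.6 and 33.6 CPM, with log2 fold changes of -0.15 (-0.46 to 0.16) and 0.05 (-0.26 to 0.36).

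Among the licensing factors, Cdc6 and Gmnn fell in both comparisons and Cdt1 was called in neither. Cdc6, an ATPase that helps load the helicase, had 6.28, 17.6 and 34.1 CPM at 5 weeks, 6.69, 25.7 and 72.2 CPM at 8 weeks and 1.40, 3.45 and 13.8 CPM in the aged group. In 5 of 6 aged libraries it was below every younger one, and aged replicate 2 lay within the younger range. The log2 fold change was -2.49 (SE 0.44, limma adjusted p = 0.000991) against 8 weeks and -1.92 (SE 0.44, adjusted p = 0.00434) against 5 weeks.

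Gmnn encodes geminin, the inhibitor of CDT1, and lies at chr13:24751845-24761923 (GRCm38, minus strand). It had 10.1, 31.9 and 41.5 CPM at 5 weeks, 14.4, 21.8 and 67.9 CPM at 8 weeks and 2.49, 6.04 and 12.2 CPM in the aged group. All 6 aged libraries were below all 8-week libraries, and 4 of 6 were below all 5-week libraries. The falls were 4.13-fold (log2 -2.05, SE 0.27, limma adjusted p = 0.000182) and 4.06-fold (log2 -2.02, SE 0.27, adjusted p = 4.97e-05).

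Cdt1, the loading factor that geminin restrains, had 5.70, 15.2 and 30.9 CPM at 5 weeks, 4.56, 15.8 and 81.4 CPM at 8 weeks and 4.36, 10.1 and 32.9 CPM in the aged group. Its groups overlapped almost wholly, and 1 aged library lay below every younger one. Its log2 fold change was -0.94 (95% interval -1.62 to -0.25, limma adjusted p = 0.0718) against 8 weeks and -0.56 (-1.25 to 0.13, adjusted p = 0.26) against 5 weeks. Without 8-week replicate 4, the lowest 8-week library for Cdt1, the adjusted p against 8 weeks was 0.0152, and without aged replicate 7 it was 0.0345.

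Genes of 5 of the 6 subunits of the MCM2-7 helicase, which unwinds DNA ahead of the fork, fell in both comparisons. The median log2 fold change of the 6 was -1.49 against 8 weeks and -1.29 against 5 weeks. Mcm5, at chr8:75109569-75128439 (plus strand), whose upstream sequence is printed above, had 46.4, 81.1 and 140 CPM at 5 weeks, 17.1, 94.2 and 311 CPM at 8 weeks and 7.93, 19.99 and 65.1 CPM in the aged group. In 5 of 6 aged libraries Mcm5 lay below every 5-week library and in 2 of 6 below every 8-week library, since 8-week replicate 4 was low. Its log2 fold change was -2.07 (SE 0.42, limma adjusted p = 0.00274) against 8 weeks and -2.004 (SE 0.42, adjusted p = 0.0026) against 5 weeks.

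Mcm2, whose protein also binds histones, had 44.7, 86.8 and 113 CPM at 5 weeks, 22.3, 92.4 and 288 CPM at 8 weeks and 20.1, 29.7 and 107 CPM in the aged group. It fell by 1.39 (SE 0.39, limma adjusted p = 0.0183) and 1.21 (SE 0.39, adjusted p = 0.0304) on the log2 scale, with overlap in both comparisons. Without aged replicate 1 the adjusted p-values of Mcm2 were 0.054 and 0.0873, without 8-week replicate 2 the value against 8 weeks was 0.0539, and without 5-week replicate 4 or 7 or aged replicate 4 the value against 5 weeks was 0.05 to 0.0615. Mcm3, Mcm4 and Mcm6 fell by 1.77, 1.57 and 1.41 against 8 weeks and by 1.60, 1.34 and 1.24 against 5 weeks. Mcm7 was the exception. Its log2 fold changes were -0.56 (95% interval -1.09 to -0.02, limma adjusted p = 0.163) and -0.38 (-0.92 to 0.15, adjusted p = 0.324). The interval against 8 weeks excludes 0, but the unadjusted limma p was not under 0.05. Without 8-week replicate 4, its lowest 8-week library, Mcm7 was called lower against 8 weeks. Other genes overlap 12.6% of its exon length.

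Of the other MCM proteins, Mcm10 and Mcm8 fell against 8-week uteri. Mcm10, at chr2:4989714-5012791 (minus strand), acts when the helicase starts. It had 6.20, 23.0 and 48.1 CPM at 5 weeks, 7.09, 22.7 and 70.2 CPM at 8 weeks and 0.634, 2.27 and 11.9 CPM in the aged group. In 5 of 6 aged libraries it was below every younger library, with aged replicate 2 the exception. Its falls were 6.42-fold (log2 -2.68, SE 0.41, limma adjusted p = 0.000336) and 5.98-fold (log2 -2.58, SE 0.41, adjusted p = 0.000232). Mcm8, a helicase of recombination repair, fell by 1.05 (SE 0.31, adjusted p = 0.026) against 8 weeks.

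Cdc45 and 3 of the 4 GINS genes, which complete the active helicase, fell against 8-week uteri. Cdc45 had 11.8, 27.3 and 35.0 CPM at 5 weeks, 7.93, 27.2 and 61.2 CPM at 8 weeks and 1.88, 5.38 and 12.6 CPM in the aged group, with 5 of 6 aged libraries below every younger one. Its log2 fold changes were -2.08 (SE 0.39, limma adjusted p = 0.00169) and -2.03 (SE 0.39, adjusted p = 0.00147). Gins1 had 7.07, 13.1 and 14.4 CPM, then 4.81, 12.3 and 30.7 CPM, then 2.35, 4.04 and 8.44 CPM, and fell by 1.53 (SE 0.29, adjusted p = 0.00155) and 1.40 (SE 0.29, adjusted p = 0.00213). Gins2 fell by 1.49 and 1.52, though another gene overlaps 67.3% of its exon length, and without strand the reads of overlapping genes cannot be told apart. Gins4 had log2 fold changes of -0.20 (95% interval -0.47 to 0.07) and -0.19 (-0.46 to 0.09).

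**Figure D2:**
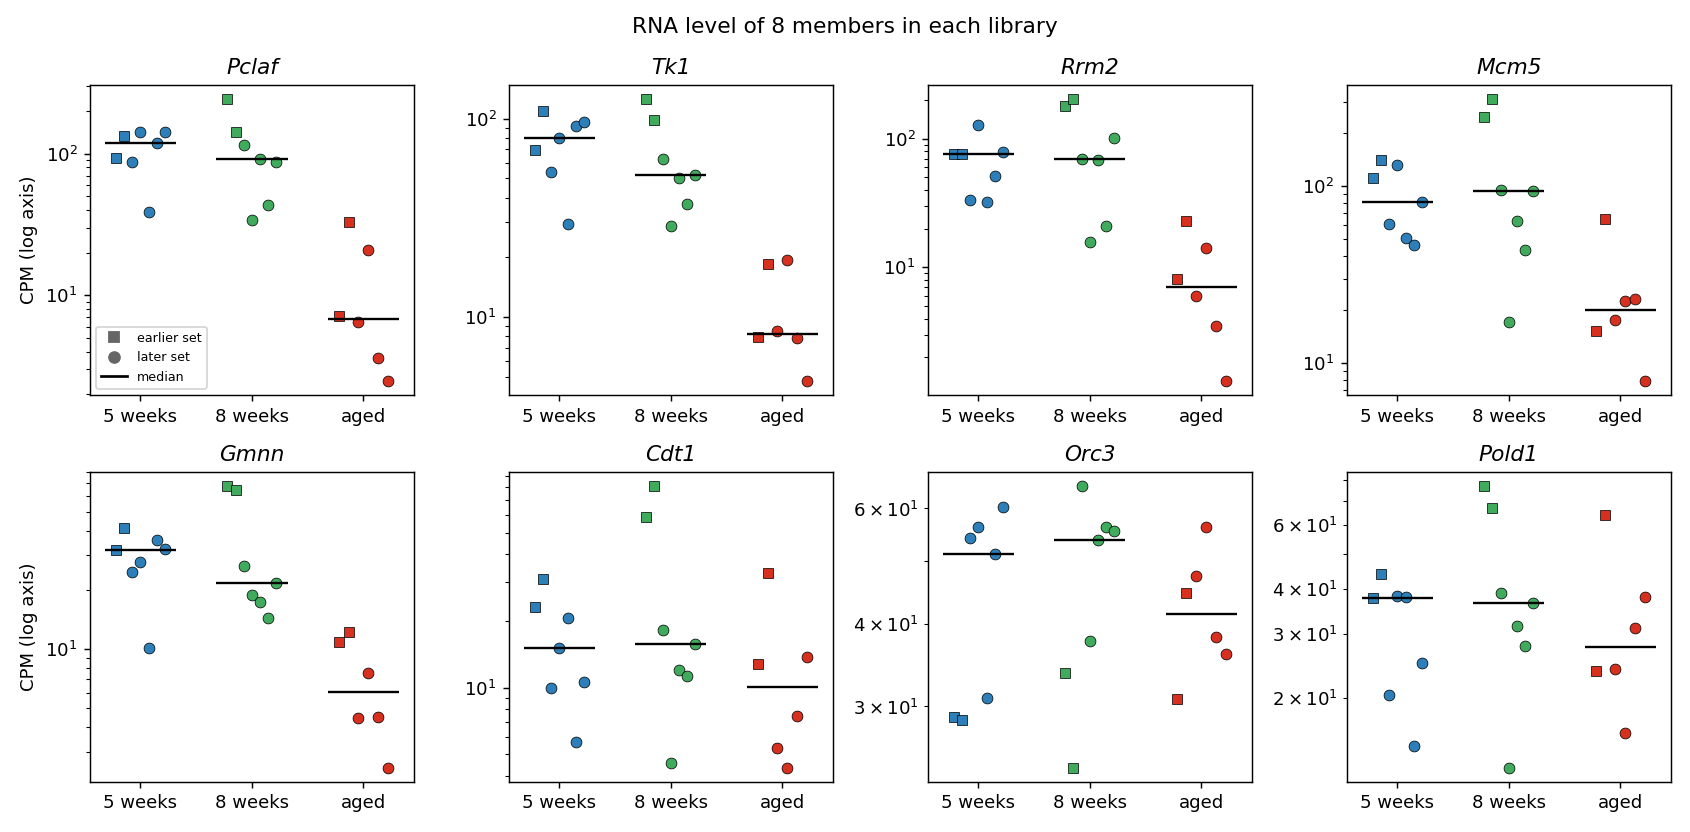
CPM (y axis, log scale) of 8 members in each of the 20 libraries by age group, with squares for the earlier set, circles for the later set and a line at the group median. All 6 aged libraries of Pclaf and Tk1 lie below all 14 younger libraries, while those of Cdt1, Orc3 and Pold1 overlap the younger ones.

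Of the 4 genes of polymerase alpha-primase, which lays the primer and the first stretch of DNA, Pola1, Prim1 and Prim2 fell in both comparisons and Pola2 was called in neither. Pola1 had 27.7, 42.9 and 50.8 CPM at 5 weeks, 12.8, 35.5 and 69.9 CPM at 8 weeks and 10.8, 14.9 and 36.7 CPM in the aged group. Against 5 weeks 5 of 6 aged libraries lay below every young library, and against 8 weeks 1 of 6 did. Its log2 fold change was -0.97 (SE 0.28, limma adjusted p = 0.0227) against 8 weeks and -1.09 (SE 0.28, adjusted p = 0.0101) against 5 weeks. Leaving out 8-week replicate 1 or 2, or aged replicate 1 or 6, moved the first adjusted p of Pola1 to between 0.0503 and 0.0706.

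Both polymerase epsilon genes among the members fell, and none of the 3 polymerase delta genes among them was called. Pold4, a polymerase delta gene outside the members, rose in both comparisons and is described below. Pole, the catalytic subunit of the leading-strand polymerase, had 8.53, 14.7 and 26.5 CPM at 5 weeks, 3.27, 19.4 and 41.6 CPM at 8 weeks and 2.13, 3.92 and 17.9 CPM in the aged group. Its log2 fold changes were -1.64 (SE 0.41, limma adjusted p = 0.0107) and -1.45 (SE 0.41, adjusted p = 0.0171), the second being 0.0519 without aged replicate 1. Pole2, its partner, fell by 1.75 and 1.66. Pold1, the catalytic subunit of polymerase delta, had 14.7, 37.7 and 43.9 CPM at 5 weeks, 12.8, 36.4 and 76.9 CPM at 8 weeks and 15.9, 27.6 and 64.0 CPM in the aged group, and the groups overlapped throughout. Its log2 fold changes were -0.32 (95% interval -0.90 to 0.26, adjusted p = 0.48) and -0.01 (-0.60 to 0.57, adjusted p = 0.979). Whether the falls of the epsilon and delta genes differ was not tested.

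Pcna and Pclaf fell in both comparisons. Pcna, the sliding clamp, had 73.6, 261 and 275 CPM at 5 weeks, 126, 200 and 313 CPM at 8 weeks and 31.8, 93.8 and 126 CPM in the aged group. It fell by 1.29 (SE 0.28, limma adjusted p = 0.00491) and 1.05 (SE 0.28, adjusted p = 0.0135), with 5 of 6 aged libraries below every 8-week library. Pcna also had the most RNA per kilobase of exon among the members, with a median over all libraries of 64.6 CPM per kilobase. Reads of its annotated processed pseudogenes could add to its count.

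Pclaf, at chr9:65890237-65903266 (plus strand), encodes a small protein that binds PCNA, and it had the largest fall of all members in both comparisons. It had 38.9, 118 and 142 CPM at 5 weeks, 33.9, 91.6 and 243 CPM at 8 weeks and 2.49, 6.80 and 33.0 CPM in the aged group. All 6 aged libraries lay below all 14 younger libraries, and the highest aged library, replicate 2, was just under the lowest younger one. The falls were 9.91-fold (log2 -3.31, SE 0.45, limma adjusted p = 0.000191) and 11.03-fold (log2 -3.46, SE 0.45, adjusted p = 3.58e-05). Only Pclaf and Tk1 among the members were lower in every aged library than in every younger one, an order that 0.571% of all genes showed. No member was higher in every aged library than in every 8-week library, every 5-week library or every younger library, as 0.946%, 1.65% and 0.586% of all genes were.

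Of the genes for the clamp loaders, which open and close PCNA on DNA, Rfc4, Rfc5 and Dscc1 fell in both comparisons. Rfc4 had 15.4, 23.6 and 28.96 CPM at 5 weeks, 11.5, 18.9 and 32.2 CPM at 8 weeks and 8.24, 12.1 and 14.2 CPM in the aged group, and all aged libraries were below all 5-week libraries, as for 1.43% of all genes. It fell by 0.81 (SE 0.22, limma adjusted p = 0.0183) and 0.95 (SE 0.22, adjusted p = 0.0056), and without 8-week replicate 1 or aged replicate 1 the first p was 0.0528 or 0.0564. Dscc1, part of an alternative loader, fell by 1.75 and 1.62, and Rfc5 by 1.11 and 1.26. Rfc1, the large subunit, had 45.9, 67.2 and 98.8 CPM, then 47.9, 66.1 and 138 CPM, then 46.6, 52.5 and 94.6 CPM, with log2 fold changes of -0.37 (95% interval -0.67 to -0.08, adjusted p = 0.0904) and -0.30 (-0.59 to 0.00, adjusted p = 0.159).

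The 3 subunits of RPA, which coats single-stranded DNA, gave 3 different calls. Rpa3 fell in both comparisons (log2 -0.83 and -0.88, limma adjusted p = 0.0169 and 0.0096), and every aged library lay below every 8-week library, as for 1.02% of all genes. Rpa2 had 23.0, 36.4 and 47.9 CPM at 5 weeks, 16.5, 40.6 and 76.8 CPM at 8 weeks and 14.3, 23.6 and 31.1 CPM in the aged group, and fell against 8 weeks by 0.90 (SE 0.28, adjusted p = 0.033). Without any 1 of 8-week replicates 1, 2 or 3 or aged replicates 1 or 7 that p was between 0.0603 and 0.0977. Rpa1, the large subunit, had 45.3, 81.9 and 115 CPM, then 29.4, 90.3 and 180 CPM, then 45.1, 62.2 and 93.9 CPM, with log2 fold changes of -0.48 (95% interval -1.05 to 0.08) and -0.30 (-0.86 to 0.27).

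Of the 3 members that finish Okazaki fragments, Fen1 and Lig1 fell and Rnaseh2a was called in neither comparison. Lig1, the replicative DNA ligase, had 32.8, 52.3 and 119 CPM at 5 weeks, 17.3, 56.9 and 201 CPM at 8 weeks and 18.6, 26.2 and 83.8 CPM in the aged group. It fell by 1.13 (SE 0.30, limma adjusted p = 0.0148) and 1.05 (SE 0.30, adjusted p = 0.0177), the second p being 0.0527 without aged replicate 1. Fen1, the flap endonuclease, was the member with the fewest reads, and other genes overlap 84.2% of its exon length. It had 1.09, 2.88 and 6.29 CPM, then 1.04, 3.19 and 11.4 CPM, then 0.519, 0.916 and 4.34 CPM. It fell by 1.11 (SE 0.30, adjusted p = 0.0152) and 1.01 (SE 0.30, adjusted p = 0.02), the second p being 0.0602 without aged replicate 1. Rnaseh2a, the catalytic subunit of an RNase H, had 24.2, 40.99 and 46.0 CPM, then 34.7, 36.4 and 46.2 CPM, then 28.2, 37.2 and 45.2 CPM. Its log2 fold changes were -0.01 (95% interval -0.29 to 0.26) and 0.01 (-0.26 to 0.28).

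All 5 nucleotide supply members fell in both comparisons, with median log2 fold changes of -1.62 against 8 weeks and -1.82 against 5 weeks. Rrm2, at chr12:24708241-24714146 (plus strand), encodes the small subunit of ribonucleotide reductase that is made in S phase. It had 32.5, 75.6 and 129 CPM at 5 weeks, 15.7, 69.2 and 203 CPM at 8 weeks and 1.31, 7.04 and 22.9 CPM in the aged group. All aged libraries lay below all 5-week libraries, and 5 of 6 lay below all 8-week libraries. The falls were 8.99-fold (log2 -3.17, SE 0.49, limma adjusted p = 0.000407) and 8.25-fold (log2 -3.04, SE 0.49, adjusted p = 0.000314).

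Rrm1, the large subunit of the same enzyme, fell less on this scale. It had 83.4, 230 and 303 CPM at 5 weeks, 76.8, 166 and 385 CPM at 8 weeks and 34.8, 53.6 and 108 CPM in the aged group, with 5 of 6 aged libraries below every younger one. Its log2 fold changes were -1.62 (SE 0.29, limma adjusted p = 0.00124) and -1.82 (SE 0.29, adjusted p = 0.000317).

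Tk1, at chr11:117815526-117826092 (minus strand), encodes the cytosolic thymidine kinase, which salvages thymidine in dividing cells. It had 29.5, 80.3 and 110 CPM at 5 weeks, 28.9, 51.8 and 126 CPM at 8 weeks and 4.76, 8.18 and 19.4 CPM in the aged group, so the aged libraries were clear of all 14 younger ones. The falls were 5.52-fold (log2 -2.46, SE 0.32, limma adjusted p = 0.000156) and 6.70-fold (log2 -2.74, SE 0.32, adjusted p = 1.64e-05), the smallest adjusted p-values of any member in both comparisons.

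Tyms, which makes thymidylate, had 34.0, 78.4 and 84.5 CPM at 5 weeks, 25.0, 55.9 and 126 CPM at 8 weeks and 9.70, 24.2 and 31.2 CPM in the aged group. All aged libraries of Tyms were below all 5-week libraries. It fell by 1.55 (SE 0.31, limma adjusted p = 0.00234) and 1.68 (SE 0.31, adjusted p = 0.000949), and reads of an annotated processed pseudogene could be split with it. Dut, which removes dUTP, had 35.6, 66.4 and 69.7 CPM, then 16.4, 54.7 and 150 CPM, then 9.54, 19.96 and 37.0 CPM, and fell by 1.61 and 1.53.

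Calls among the other nucleotide synthesis genes went both ways. Of 33 such genes outside the members, 8 fell and 4 rose against 8 weeks, and 8 fell and 3 rose against 5 weeks. Against 8 weeks 8.44% of all genes were called lower and 8.59% higher, and against 5 weeks 9.30% and 12.6%. The rises were thus near the share over all genes and are not read as a trait of this list. Dck, a deoxycytidine kinase, had 19.62, 30.0 and 39.87 CPM at 5 weeks, 19.84, 32.97 and 63.66 CPM at 8 weeks and 4.891, 12.2 and 22.91 CPM in the aged group and fell by 1.53 and 1.29.

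Those that rose in both comparisons were Tk2, Rrm2b and Dguok. Tk2 and Dguok, the mitochondrial kinases for pyrimidine and purine deoxynucleosides, rose by 1.19 and 0.46 on the log2 scale against 8 weeks and by 1.27 and 0.64 against 5 weeks. Rrm2b, a small reductase subunit that does not depend on S phase, rose by 0.68 and 0.71. Tk2 had 10.7, 15.5 and 23.3 CPM at 5 weeks, 12.7, 16.5 and 21.2 CPM at 8 weeks and 20.4, 43.2 and 65.8 CPM in the aged group. Rrm2b had 13.3, 15.7 and 25.6 CPM, then 13.3, 15.9 and 28.3 CPM, then 17.5, 31.4 and 36.3 CPM. In aged uteri the cytosolic and S-phase forms Tk1 and Rrm2 were thus lower while their counterparts Tk2 and Rrm2b were higher, and a test of each gene against its counterpart was not made.

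**Figure D3:**
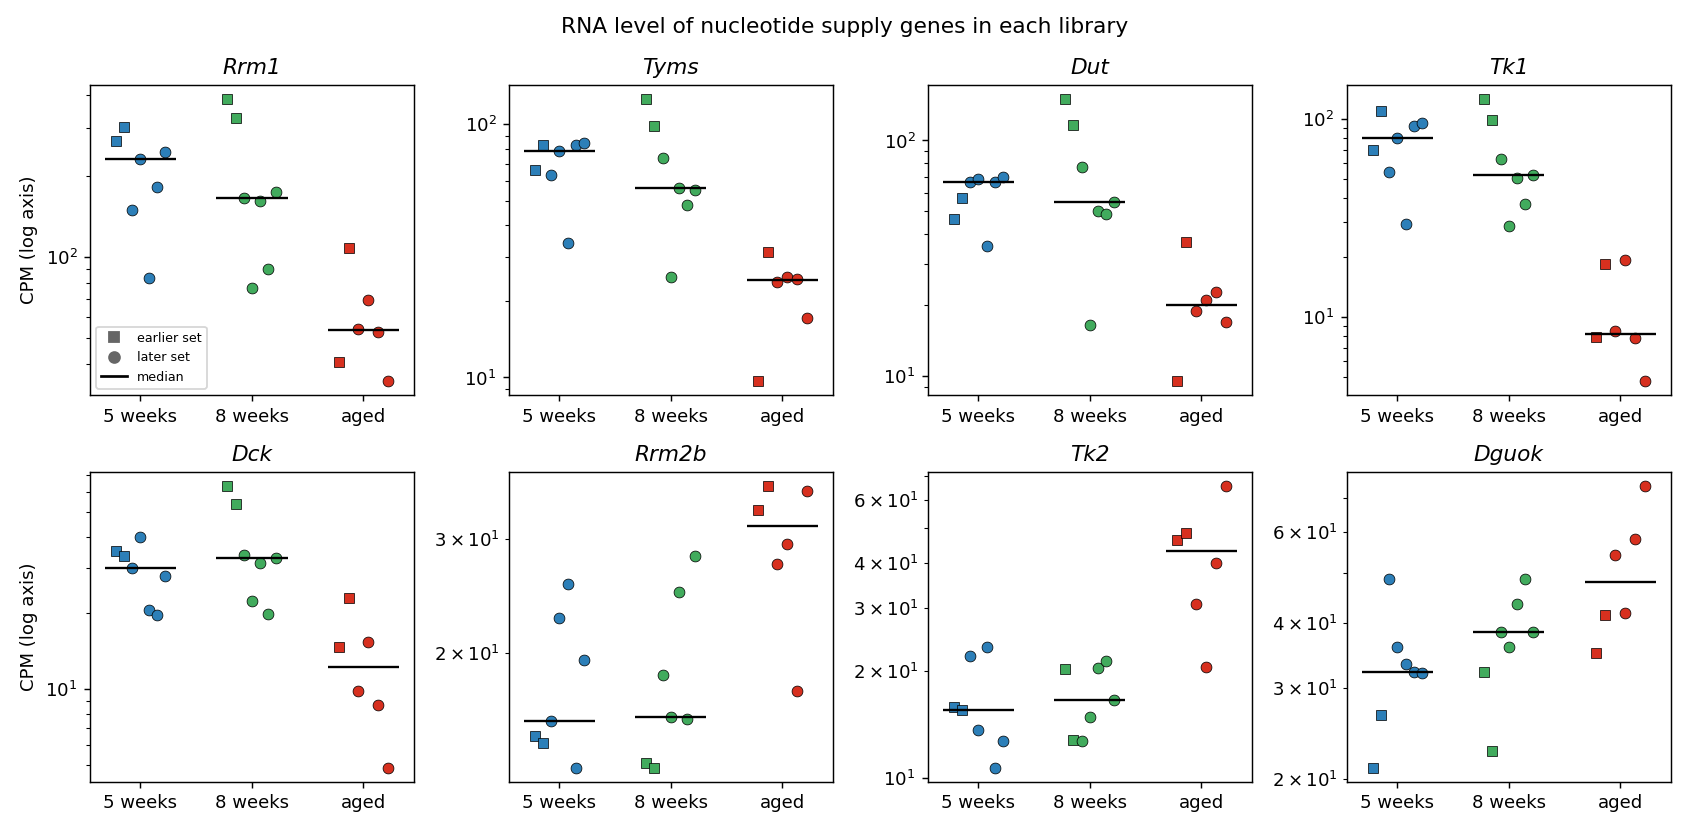
CPM (y axis, log scale) of 8 DNA precursor genes in each of the 20 libraries by age group, with squares for the earlier set, circles for the later set and a line at the group median. The aged medians of Rrm1, Tyms, Dut, Tk1 and Dck lie below both younger medians, and those of Rrm2b, Tk2 and Dguok lie above them.

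Both members that encode subunits of chromatin assembly factor 1, which places histones on new DNA, fell in both comparisons. Chaf1a had 4.73, 16.5 and 49.0 CPM at 5 weeks, 3.47, 12.7 and 87.6 CPM at 8 weeks and 2.79, 3.96 and 26.7 CPM in the aged group, and fell by 1.58 (SE 0.38, limma adjusted p = 0.00896) and 1.47 (SE 0.38, adjusted p = 0.0108). Another gene overlaps 52.5% of the Chaf1a exons. Chaf1b had 10.7, 22.6 and 31.1 CPM, then 7.63, 21.6 and 66.9 CPM, then 6.02, 10.3 and 27.1 CPM, and fell by 1.23 (SE 0.31, adjusted p = 0.012) and 0.95 (SE 0.31, adjusted p = 0.0354). The second call of Chaf1b was lost, with adjusted p between 0.0579 and 0.0999, without any 1 of 5-week replicates 3, 4, 6 or 7 or aged replicates 1, 5 or 7.

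E2f1, the transcription factor gene among the members, had 6.90, 14.9 and 18.9 CPM at 5 weeks, 6.00, 13.8 and 42.4 CPM at 8 weeks and 2.67, 4.19 and 13.6 CPM in the aged group. In 5 of 6 aged libraries it lay below every younger library. It fell by 1.66 (SE 0.28, limma adjusted p = 0.000735) and 1.34 (SE 0.28, adjusted p = 0.00256). Of 11 other E2F and pocket protein genes 5 fell against 8 weeks and 3 against 5 weeks, among them E2f8, a repressor (-2.60 and -2.14), and Rbl1, a pocket protein (-1.32 and -1.31), and none rose.

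Most of the called genes that work beside the members were lower as well. Of 30 other fork and origin genes 19 fell and 1 rose against 8 weeks, and 18 fell and 1 rose against 5 weeks. They include Top2a, a topoisomerase (-3.02 and -3.35), Cdca5, a cohesion factor (-2.18 and -2.28), and Dbf4, the activator of the CDC7 kinase (-1.91 and -2.23). Top2a is also counted among the mitotic genes below. The gene that rose was Pold4, the small subunit of polymerase delta, from medians of 28.37 CPM at 5 weeks and 25.65 CPM at 8 weeks to 45.56 CPM in the aged group (0.66 and 0.67, limma adjusted p = 0.0108 and 0.00736). Of 11 replication-coupled chromatin genes 5 fell against 8 weeks and 6 against 5 weeks, among them Asf1b (-2.52 and -2.56) and Uhrf1 (-2.68 and -2.26).

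All 29 mitotic genes tested fell in both comparisons, with medians of -2.83 and -3.40 beside -1.11 and -1.05 for the members. Mki67, a marker of cycling cells, had medians of 225.5 CPM at 5 weeks, 125.6 CPM at 8 weeks and 16.75 CPM in the aged group. Within libraries the mean log2(CPM + 1) of the members minus that of the mitotic genes was -2.07 to -0.13 at 5 weeks, -1.001 to 0.26 at 8 weeks and 0.04 to 1.97 in aged uteri. This is a description, and no test of the members against the mitotic genes was made.

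**Figure D4:**
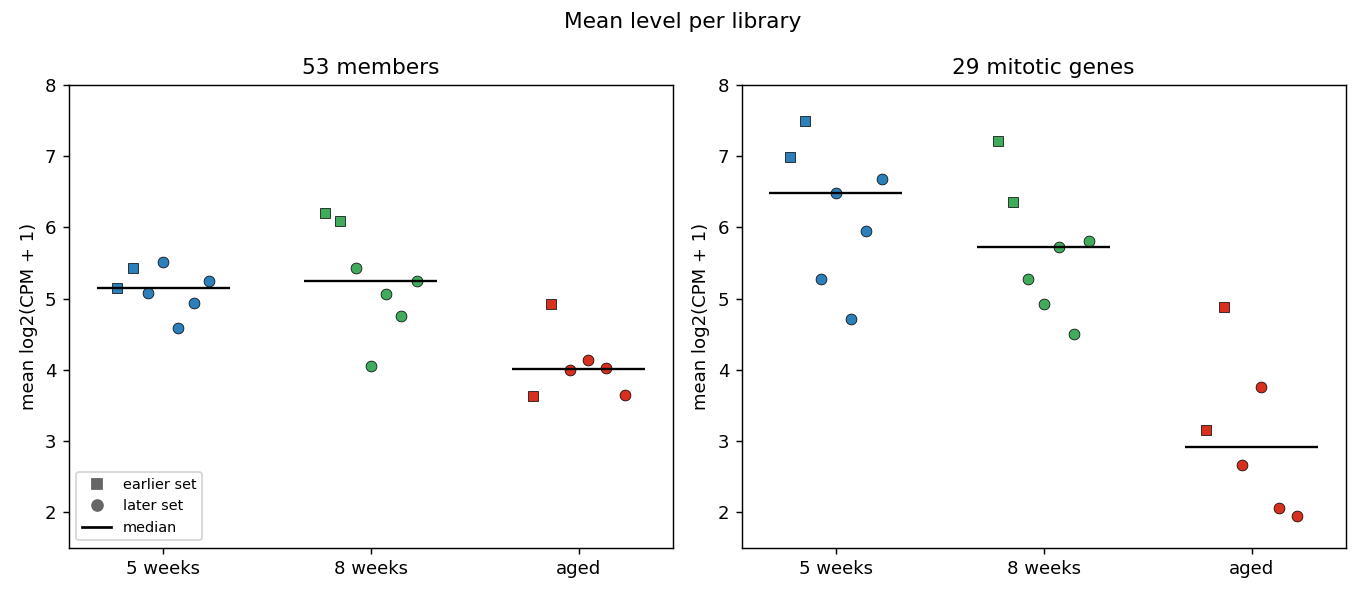
Mean log2(CPM + 1) of the 53 members (left) and of 29 mitotic genes (right) in each of the 20 libraries by age group, with squares for the earlier set and circles for the later set. Members' means run from 3.63 to 4.92 in aged, from 4.05 to 6.21 in 8-week and from 4.58 to 5.52 in 5-week libraries.

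The members tended to be high or low together within an age group. At 8 weeks, replicate 4 was the lowest library for 44 of 53 members, with a mean log2(CPM + 1) of 4.05, and replicates 1 and 2 were the highest for 34 and 14, with means of 6.21 and 6.09. Among aged libraries, replicate 2 was the highest for 41 members, with a mean of 4.92, above that of 8-week replicate 4. At 5 weeks, replicate 5 was the lowest for 27 members and replicate 6 for 19. Leaving out 1 library at a time gave 29 to 45 members lower against 8 weeks, the lowest count without aged replicate 1 and the highest without 8-week replicate 4. The same gave 27 to 37 members lower against 5 weeks, the lowest without aged replicate 1 and the highest without 5-week replicate 5. Of the members called, 29 of 38 against 8 weeks and 27 of 34 against 5 weeks were called under each of the 20 omissions. Some members called in neither comparison gained a call. Without 8-week replicate 4, Orc2, Cdt1, Mcm7, Pola2, Pold2, Rfc3 and Rpa1 were called lower against 8 weeks. Rfc1 was called without 8-week replicate 6, and Pola2 without aged replicate 5.

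The calls lost to an omission are given above for Mcm2, Pola1, Pole, Rfc4, Rpa2, Fen1, Lig1 and Chaf1b, and Mcm8, Gins3, Prim1, Rfc2, Rpa3 and Orc6 lost calls too. Against 8 weeks, Mcm8, Prim1 and Rfc2 were not called (limma adjusted p from 0.0518 to 0.0891) without any 1 of 8-week replicates 1, 2 or 3 or aged replicate 1. Gins3 was lost (adjusted p 0.0567 to 0.107) without any 1 of the same 4 libraries, 8-week replicates 5 or 7 or aged replicate 7, and Rpa3 (adjusted p = 0.0542) without aged replicate 1. Against 5 weeks Orc6 was lost under 12 of 20 omissions (adjusted p 0.0508 to 0.118) and Prim1 under 14 of 20 (adjusted p 0.0525 to 0.124). With 5-week replicate 3 and 8-week replicate 3 both left out, Mcm8, Gins3, Pola1, Prim1, Rfc2, Rfc4 and Rpa2 were not called against 8 weeks, and Orc6, Prim1 and Chaf1b were not called against 5 weeks.

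Within the earlier set the median log2 fold change of the members was -1.90 against 8 weeks, and within the later set it was -0.82, with the larger fall in the earlier set for 52 of 53 members. Against 5 weeks the medians were -0.95 and -1.03. In a fit with an age-by-set interaction 0.0235% of all genes and 0 members were called for the first comparison, and 0.00% of all genes and 0 members for the second. At an unadjusted p under 0.05, 8 members against 14.4% of all genes and 0 members against 8.40% differed between sets. The direction was negative in both sets for 51 members against 8 weeks and for 49 against 5 weeks. Fitted on the later set alone, 8 members fell against 8 weeks (Cdc6, Gmnn, Mcm10, Pclaf, Dscc1, Rrm2, Tk1 and E2f1) and 22 fell against 5 weeks. Fitted on the earlier set alone, with 2 libraries a group, 41 and 8 fell, and with all libraries but no set term 27 and 22 fell. By file, aged replicate 2 would belong to the later set and aged replicate 5 to the earlier set.

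**Figure D5:**
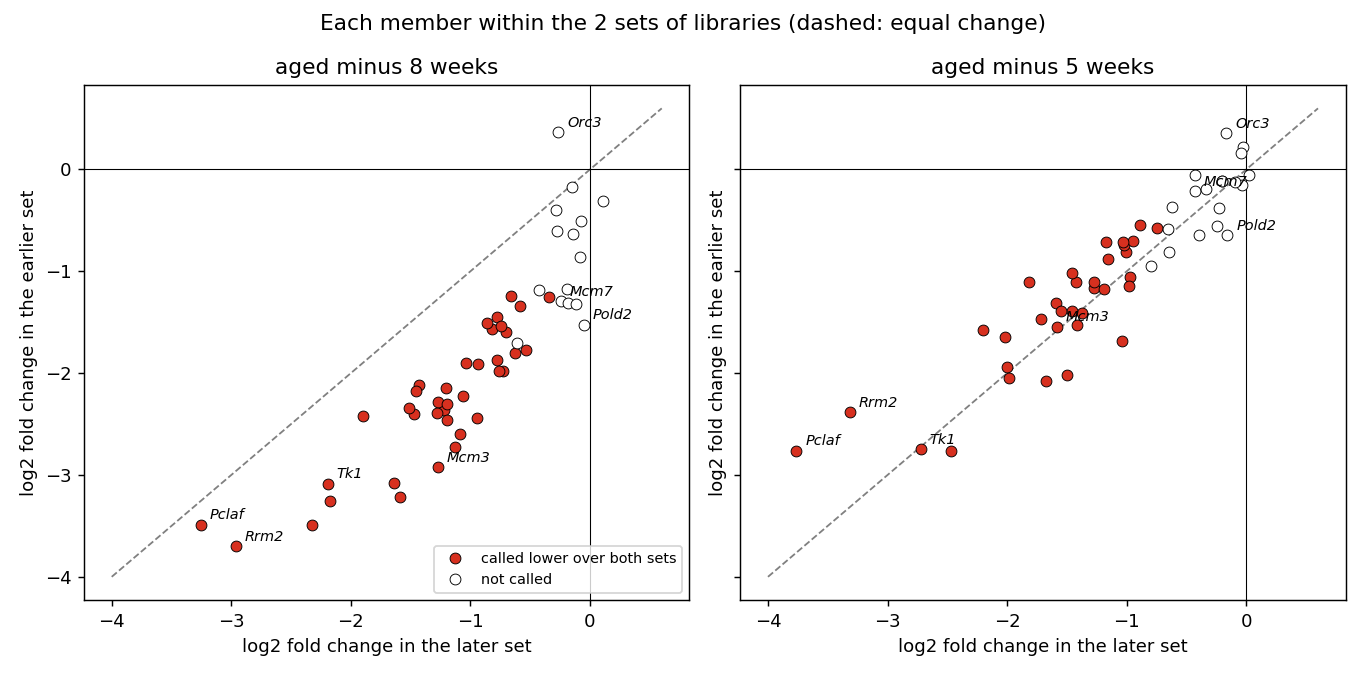
Log2 fold change of each of the 53 members within the later set (x axis) and within the earlier set (y axis), for aged minus 8-week uteri (left) and aged minus 5-week uteri (right), with a dashed line where both are equal. Against 8 weeks 52 of 53 members lie below the line, and against 5 weeks 19 do.

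Markers of the cell types of the uterus were read beside these results. Against 8 weeks and 5 weeks, no smooth muscle marker of 17 fell and 0 and 2 rose. Of 20 epithelial markers 0 and 1 fell and 2 and 2 rose, and of 17 stromal markers 1 and 1 fell and 1 and 0 rose. Median log2 fold changes were 0.41 and 0.48 for smooth muscle, -0.16 and -0.37 for epithelial and 0.08 and 0.13 for stromal markers. Those of all genes were 0.05 and 0.09. Though mostly uncalled, 16 of the 17 smooth muscle markers lay above 0 in each comparison, beside 6989 and 7299 of all 12791 genes. Summed smooth muscle markers ran from 3725.1 to 21769.1 CPM at 5 weeks, from 2751.1 to 27218.3 CPM at 8 weeks and from 4440.5 to 35567.1 CPM in the aged group. They were low in 8-week replicates 1 and 2, at 2751.1 and 3835.4 CPM, the 2 libraries highest in the members, and in 5-week replicate 2, at 3725.1 CPM. Among aged libraries they were low in replicate 2, at 5753.7 CPM, which was the highest in the members, and lowest in replicate 7, at 4440.5 CPM, which was the lowest of the aged libraries for 19 members. Summed epithelial markers ran from 3390.8 to 12924.5, from 2872.1 to 13582.0 and from 3385.6 to 9541.7 CPM. In both younger groups they were highest in replicates 1 and 2, at 11450.4 and 12924.5 CPM at 5 weeks and 9632.5 and 13582.0 CPM at 8 weeks. Among aged libraries they were highest in replicates 1 and 7, at 9541.7 and 9337.9 CPM. Stromal markers ran from 3029.8 to 8695.8, from 2932.5 to 8997.0 and from 4647.5 to 9618.2 CPM. Of 9 lymphoid markers 3 rose in both comparisons (Igkc, Ighm and Jchain, genes of antibodies) and the other 6 were not called. From the list of 20, 11 are not among the listed genes. The median log2 fold change of the 9 was -0.01 against 8 weeks and 0.13 against 5 weeks, with 5 and 4 of them below 0. Summed, the 9 ran from 58.3 to 408.8 CPM at 5 weeks, from 61.8 to 719.0 CPM at 8 weeks and from 526.3 to 5315.5 CPM in the aged group. Igkc alone reached 3052 CPM in an aged library. Of 13 macrophage markers 1 rose against 8 weeks and 3 against 5 weeks. Their median log2 fold changes were 0.55 and 0.85, with 11 and 12 of the 13 above 0. Of 4 red blood cell genes 4 rose against 8 weeks and 0 against 5 weeks. Of 21 estrogen-responsive uterine genes 6 fell and 1 rose in each comparison. The part of cell composition and of hormone state in the members' falls was not tested.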

How the data were processed

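Whole uterus RNA of 20 libraries was analysed. The authors deposited CPM values for 12791 genes in every library. Listed in the submitters' processing notes are edgeR, featureCounts, STAR, fastp and the build GRCm38, with neither roles nor versions. Per the labels, libraries were made without strand information and read as 60 bp single or 150 bp paired ends, by 2 homogenisers and 2 RNA kits, and the sources used here do not assign these to libraries. Every gene has at least 10 reads in every library, so genes absent at 1 age are not among those listed. Read totals over the listed genes were derived from the steps of the CPM values, which came out whole for 100.0% of values within 1e-06.

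limma 3.58.1 (trend and robust, in R 4.3.3) was fitted to log2(CPM + 1) with age group and set as terms, for 3 comparisons over all genes, and called genes at an adjusted p under 0.05. Tested on simulated data, it missed many of the smaller changes. Gene positions are from GENCODE M21. Alternatives were other pseudocounts (0.1 and 5), a mean CPM of at least 5, quantile scaling, no set term, each set alone, columns taken by file, a replicate block and leaving out libraries. The count tests planned with edgeR and DESeq2 were not run, although whole reads could be derived, and all tests used CPM as deposited. Named members, roles and gene lists were chosen with earlier results of these data known. Values by group are given for 28 members picked by role and for those with the 3 largest and 3 smallest changes, and Dut was added after its values were seen. From other lists, genes with the smallest p in each direction are named, with Mki67. Some genes are not reported here. No paired libraries were assumed.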

Additional observations from a re-analysis of the deposited data

Results flagged for a closer look

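In 12 of 162 tests, of the 53 members and of their mean within each of 3 age groups, the highest or lowest library stood apart from the others by more than a 95% critical value, which chance alone does in about 1 of 20 such tests. All 12 were of single members. Values are log2(CPM + 1). Aged replicate 2 was the high library for Mcm4 (6.20, next 5.00), Mcm6 (7.06, next 5.68), Fen1 (2.42, next 1.06), Lig1 (6.41, next 4.93) and E2f1 (3.87, next 2.59). 5-week replicate 5 was the low library for Gmnn (3.48, next 4.68), Gins1 (3.01, next 3.74), Pclaf (5.32, next 6.47) and Tyms (5.13, next 6.00). Aged replicate 1 was the low library for Rfc2 (5.22, next 5.81) and Rpa3 (3.91, next 4.65). 8-week replicate 4 was the low library for Mcm7 (5.91, next 6.69).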

How the results depend on the processing

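No member was called higher in aged uteri under any of the 31 alternatives. Pseudocounts of 0.1 and 5 left 38 and 34 members lower, and quantile scaling gave 41 and 36. Against 8 weeks, genes called numbered 540 with columns taken by file, 3588 in the earlier set alone, 180 in the later set alone, 950 without the set term and 1285 to 2599 with 1 library left out (1285 without aged replicate 1, 1348 and 1432 without 8-week replicates 2 and 1), against 2179. Members lower numbered 9 by file, 8 in the later set alone and 29 to 45 with 1 library left out. The median was -1.90 in the earlier set alone. Against 5 weeks, genes called numbered 513 in the later set alone and 1366 without the set term, against 2799. Members lower numbered 8 in the earlier set alone, 22 in the later set alone, 22 without the set term and 27 to 37 with 1 library left out. Between 8 and 5 weeks the median was 0.85 in the earlier set alone. Each set alone has fewer libraries, and the cause of the other moves was not tested.

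Members that changed sign were uncalled under the settings given here. Against 8 weeks Orc3 was 0.0218 by file, 0.365 in the earlier set alone and -0.1801 to 0.0199 with 1 library left out, and Rnaseh2a was 0.1119 in the later set alone and -0.0545 to 0.0776 with 1 left out. Against 5 weeks Orc3 was -0.0112 by file, -0.1657 in the later set alone, -0.0277 without the set term, -0.0037 with only the 2 groups compared, -0.0016 with a pseudocount of 5, -0.0467 with quantile scaling and -0.1122 to 0.0878 with 1 left out. Pold1 was 0.0226 in the later set alone, 0.0267 without the set term and -0.1461 to 0.1808 with 1 left out. Orc5 was -0.0247 in the later set alone, -0.0477 with quantile scaling and -0.0453 to 0.1110 with 1 left out. Rnaseh2a was -0.045 in the later set alone, -0.0473 with quantile scaling and -0.0795 to 0.0639 with 1 left out.

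Libraries with the same replicate number did not consistently vary together (correlations from -0.505 to 0.279, above 0.1 for 10 of 19 pairs). Of 20 libraries 5 correlated best with their own number, and no chance value was worked out for this. Values were first centred within age group and set. In the earlier set, with 2 libraries a group, this forces replicates 1 and 2 to give the same correlations, so those pairs are not independent. A fit with the replicate number as a block called 1602 and 2398 genes and left 32 and 30 members lower. Planned edgeR and DESeq2 fits were not run. The lowest gene in any library has 10 reads, where counting error is large, and for low members such as Fen1 counting error was not separated from the spread between libraries.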

Other observations

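Ratios of CPM per kilobase of exon were looked at for 2 pairs of partners, chosen after their values had been seen. Exact permutation tests were used (two-sided, groups exchanged within sets, 756 arrangements), with Benjamini-Hochberg adjustment over 4 tests. The adjustment does not cover the choice of these pairs among the members. The p-values therefore only describe the chosen pairs and are not evidence for a change in them. The ratio of Rrm2 to Rrm1 RNA had a median of 0.589 in aged uteri (0.15 to 0.84 over 6 libraries), 1.69 at 8 weeks (0.813 to 2.47) and 1.12 at 5 weeks (0.883 to 2.23). By the difference in mean log2 ratio, adjusted for the set, it was 0.286 times the 8-week and 0.361 times the 5-week value. The exact permutation p was 0.00132 for each, the smallest these arrangements can give, and the adjusted p was 0.00264. The ratio of Cdt1 to Gmnn RNA, the loading factor against its inhibitor, had a median of 0.66 in aged uteri (0.268 to 2.57), 0.338 at 8 weeks (0.113 to 0.587) and 0.254 at 5 weeks (0.0741 to 0.949). By the same set-adjusted difference, the Cdt1 to Gmnn ratio was 2.36 times the 8-week value (exact permutation p = 0.0251, adjusted 0.0304). It was 3.04 times the 5-week value (exact permutation p = 0.0304, adjusted 0.0304), and the groups overlapped.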
